A study of Saccharomyces cerevisiae with 10 samples.

Results

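The nuclear genes of the mitochondrial ribosome were followed through a shift of budding yeast to lower osmolarity. They were chosen by name: every array feature whose standard *Saccharomyces cerevisiae* symbol is MRP, MRPL, MRPS or RSM followed by a number. The RefSeq table holds 67 such genes, and 66 of them were on the arrays, of 5822 features in all. The gene not on the arrays, MRP20, was not analysed here. In 64 of the 66 genes RefSeq also gives a ribosomal protein name, which puts 37 in the large subunit and 27 in the small subunit. The other 2 are RSM22, a small-subunit gene by symbol that encodes a methyltransferase-like protein, and MRP8, whose product was first listed as a mitochondrial ribosomal protein from its sequence and is no longer counted as a subunit. MRP8 fits the rule and is kept, with its values given apart.

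The mitochondrial ribosome is a machine of its own, separate from the ribosomes of the cytosol. In yeast its rRNAs and 1 protein, Var1, are encoded by mitochondrial DNA, while all other subunits are nuclear genes whose products are imported. It makes a small set of hydrophobic proteins, mostly subunits of the respiratory chain and ATP synthase, so that respiratory growth needs it and fermentative growth does not. Many of its mRNAs are bound by Puf3, an RNA-binding protein that affects their decay and their place at the mitochondrial surface. In the shared naming of ribosomal proteins, names starting with u or b mark subunits that bacteria also have, and names starting with m mark subunits particular to mitochondria. Of the 64 named members, 40 have a bacterial homolog and 24 are mitochondria-specific.

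RNA was measured on 10 2-colour arrays, 1 for each of 2 strains at 5 times, each hybridised with total RNA of 1 culture sample and a reference. The wild type was sampled at 0, 7, 16, 30 and 60 min of hypo-osmotic shock, and the strain labelled ppt1 or delPPT1 at 0, 7, 15, 30 and 60 min. The 16 min and 15 min arrays are treated as 1 time point, 15-16 min, and 0 min is taken as the state before the shift. The strain background, the medium, the size of the shift, the make-up of the reference and whether a strain's 5 times came from 1 culture were not given in the sources used here, and no unshifted culture was followed. PPT1 encodes a serine/threonine phosphatase that acts on Hsp90. Its own spot was not lower in the mutant (0.19 ± 0.13 on the log2 scale, labelled ppt1 minus wild type, SE of the fit, limma adjusted p = 0.417, lower in 2 of 5 pairs), so those arrays are called the arrays labelled ppt1. Arrays carried between 5440 and 5807 values each, and between 64 and 66 of the members. The wild type array of 0 min carried 4 decimals in 43.02% of its values, against 0% on each of the others.

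Values are given as log2 of the ratio between sample and reference, a likely but unstated direction, with each array's median set to 0. If the ratio ran the other way, higher and lower would be exchanged throughout. A ratio sets a gene against its own level in the reference, so it does not rank genes by abundance. Where a change is given with an error, it is a difference on the log2 scale with the standard error (SE) of a limma fit of time and strain to all 10 arrays, and it passed the test where the Benjamini-Hochberg adjusted p over all features was under 0.05. Each strain has 1 deposited value per feature at each time, so no single value carries a replicate error. Whether the wild type 0 min values, with their 4 decimals, average more than 1 measurement is not known here. Nothing in the labels says that the arrays are separate cultures, so p-values cover the scatter of these arrays alone, be it technical or not. All 4 comparisons with 0 min share the same 2 arrays of 0 min. In a bulk culture, a change in every cell and a larger change in some cells cannot be told apart.

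Most members had ratios close to the reference throughout. In the wild type the median member stood at -0.04, -0.11, -0.14, -0.19 and -0.03, in the order 0, 7, 16, 30 and 60 min. On the arrays labelled ppt1 it stood at 0.01, -0.17, -0.21, -0.16 and -0.03, in the order 0, 7, 15, 30 and 60 min. The medians of both strains were lower at the 3 intermediate times than at 0 and 60 min, with the lowest value at 30 min in the wild type and at 15 min on the arrays labelled ppt1. These differences are small beside the spread among members, whose SD on a single array lay between 0.21 and 0.31.

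**Figure D1:**
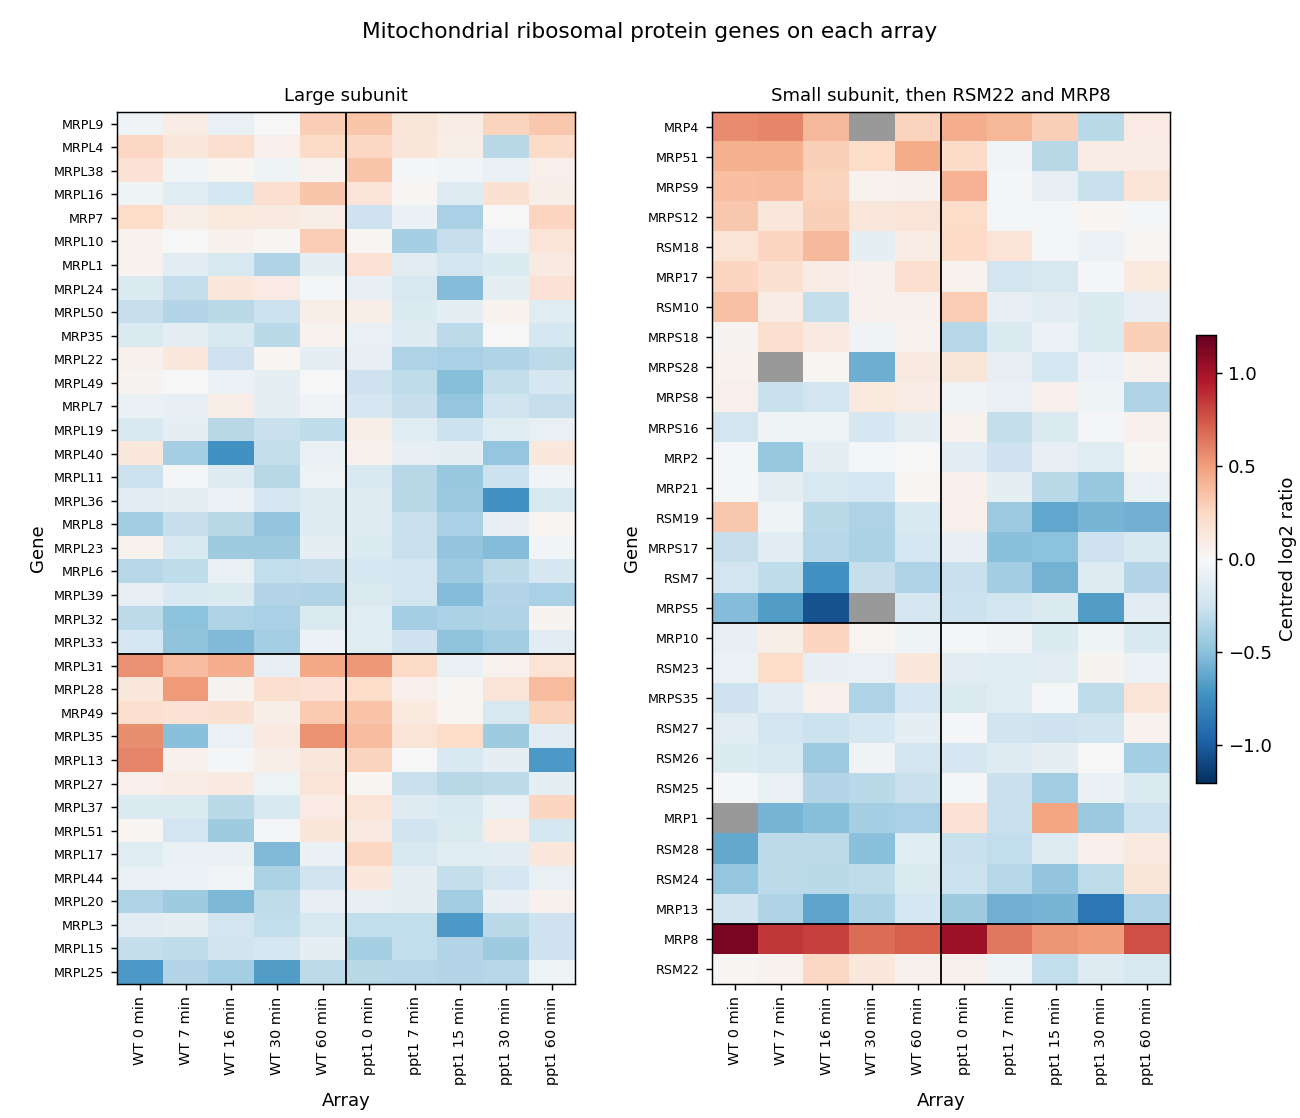
Centred log2 ratio (colour) of each of the 66 genes (rows) on each of the 10 arrays (columns, wild type left of the vertical line and arrays labelled ppt1 right of it), with the large subunit in the left panel, the small subunit in the right panel and grey for no value. Horizontal lines part subunits with a bacterial homolog (top), mitochondria-specific subunits and, at the lower right, MRP8 and RSM22, and MRP8 has the highest ratio on every array, from 0.50 to 1.13.

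The members with the highest mean ratio over the arrays were MRP8 (0.76 ± 0.20, SD over 10 arrays), MRP4, a small-subunit protein with a bacterial homolog (0.30 ± 0.28, 9 arrays), and MRPL31, a mitochondria-specific large-subunit protein (0.26 ± 0.24, 10 arrays). The lowest were MRP13, a mitochondria-specific small-subunit protein (-0.46 ± 0.20, 10 arrays), MRPS5, a small-subunit protein with a bacterial homolog (-0.43 ± 0.31, 9 arrays), and MRPL25, a mitochondria-specific large-subunit protein (-0.39 ± 0.18, 10 arrays). Leaving out MRP8, the mean ratio thus ran from 0.30 to -0.46. These are the ends of a ranking, and differences between subunits were not tested.

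How much a member moved also differed. MRPL15 (SD 0.09), MRPL6 (0.09) and RSM27, a mitochondria-specific small-subunit protein (0.11), varied least over the arrays. MRPL35, a mitochondria-specific large-subunit protein (0.37), MRP1, a mitochondria-specific small-subunit protein (0.34 over 9 arrays), and MRPL13 (0.33) varied most. For MRPL35 the wild type read 0.56, -0.50, -0.07, 0.11 and 0.54 in order of time, and the arrays labelled ppt1 0.37, 0.15, 0.22, -0.42 and -0.14. Its lowest wild type value was at 7 min and its lowest value on the arrays labelled ppt1 at 30 min, so the strains did not move together, and its fitted differences passed at none of the 4 times (limma adjusted p from 0.18 to 0.59). MRP1 had no value on the wild type 0 min array and read -0.56, -0.51, -0.40 and -0.39 there from 7 min on, against 0.18, -0.27, 0.47, -0.44 and -0.26 on the arrays labelled ppt1.

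At 7 min 0 of the 66 members passed in limma's fit, against 3.02% of all features (2.58% lower and 0.447% higher), and at an unadjusted p under 0.05 6 members were lower and 0 higher (10.3% and 5.89% of all features). The fitted difference lay below 0 for 50 members, 75.8% of them, against 51.3% of all features, and its median was -0.12 against -0.01 over all features. The most negative values were those of MRPL35 (-0.64 ± 0.28, limma adjusted p = 0.296), RSM19, a small-subunit protein with a bacterial homolog (-0.43 ± 0.12, adjusted p = 0.111), and MRP1 (-0.42 ± 0.28, adjusted p = 0.52). The most positive were those of MRPL25 (0.17 ± 0.14), MRPS18, a small-subunit protein with a bacterial homolog (0.16 ± 0.16), and RSM23, a mitochondria-specific small-subunit protein (0.14 ± 0.14), with adjusted p from 0.607 to 0.691. Most of the lower values came from the arrays labelled ppt1. There 60 of 66 members read lower at 7 min than at 0 min, with a median of -0.16, or 90.9% against 52.2% of all features. In the wild type 37 of 64 did, with a median of -0.03, or 57.8% against 50.6% of all features, a share near the background.

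At 15-16 min 2 members fell, RSM19 and RSM10, and 0 rose, or 3.03% of the members against 7.18% of all features, of which 5.62% fell and 1.56% rose. RSM10 is a small-subunit protein with a bacterial homolog. At an unadjusted p under 0.05 12 were lower and 0 higher, or 18.2% and 0%, against 13.9% and 8.42% of all features. The fitted difference was below 0 for 59 members, 89.4%, against 50.6% of all features, with a median of -0.17 against -0.00 over all features. Both later arrays read below both 0 min arrays in 31 of the 65 members with all 4 values, 47.7% against 24% of all features, and above both in 1, 1.54% against 20%. The share of called members is thus under the background, while the share of members with a small negative difference is above it.

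After MRPL13 (-0.53 ± 0.18, limma adjusted p = 0.116), the next most negative at this time was MRPL40, a large-subunit protein with a bacterial homolog (-0.51 ± 0.18, adjusted p = 0.137). The highest were MRPS35 (0.24 ± 0.14) and RSM28 (0.21 ± 0.15), both mitochondria-specific small-subunit proteins, and MRPS18 (0.17 ± 0.16), and none of them passed. On the arrays labelled ppt1 36 of the 37 large-subunit genes were lower at 15 min than at 0 min, with a median of -0.29, and 18 of the 27 small-subunit genes, with a median of -0.21. In the wild type 25 of the 37 large-subunit genes were lower at 16 min, with a median of -0.06, and 19 of 26 small-subunit genes, with a median of -0.12. Over all features 52.2% were lower at this time on the arrays labelled ppt1 and 50.8% in the wild type, against 97.3% and 67.6% of the large-subunit and 66.7% and 73.1% of the small-subunit genes. The difference between the strains in these counts was not tested as a group. The test of a strain-dependent response described further on pools the 4 later times, so it does not address 15-16 min alone. No member passed it, and 0% of all features did.

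**Figure D2:**
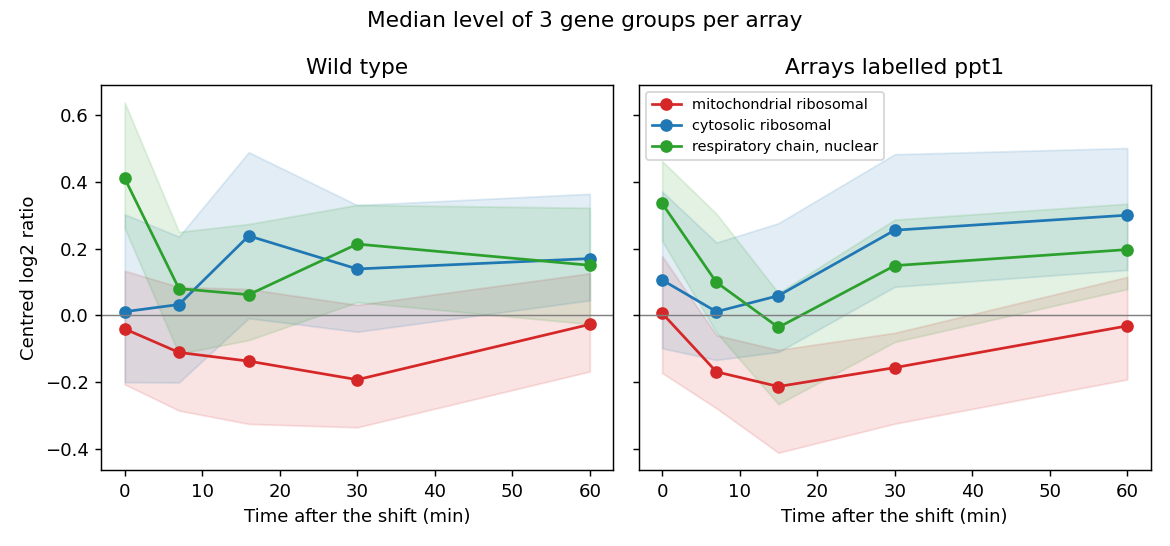
Median centred log2 ratio (points) and interquartile range over genes (bands) per array against time after the shift in min, for the mitochondrial ribosomal protein genes, the cytosolic ribosomal protein genes and the nuclear genes of the respiratory chain. The mitochondrial ribosomal median is lowest at 30 min in the wild type (-0.19) and at 15 min on the arrays labelled ppt1 (-0.21), and stands at -0.03 at 60 min in both.

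At 30 min 3 members fell, MRP4, RSM19 and MRP8, and 0 rose, or 4.55% against 11.4% of all features, of which 7.8% fell and 3.56% rose. At an unadjusted p under 0.05 16 were lower and 0 higher, against 16.7% and 11.2% of all features, and 16 are 24.2% of the members. The median difference was -0.14, against -0.02 over all features, and 51 members, 77.3%, lay below 0 against 52.9% of all features. MRPL35 (-0.62 ± 0.28, limma adjusted p = 0.18) and MRPL31 (-0.56 ± 0.16, adjusted p = 0.0549) lay below MRP8 but above MRP4 and RSM19, and did not pass. RSM28 (0.22 ± 0.15), RSM26, a mitochondria-specific small-subunit protein (0.16 ± 0.14), and MRPL16, a large-subunit protein with a bacterial homolog (0.14 ± 0.14), had the highest values and did not pass.

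By 60 min the members were spread about 0. MRPL13 and RSM19 fell and 0 rose, or 3.03% against 12.3% of all features, of which 8.38% fell and 3.97% rose. At an unadjusted p under 0.05 5 were lower and 3 higher, or 7.58% and 4.55%, against 16.4% and 11.3% of all features. The median was -0.01, against -0.02 over all features, and 36 members, 54.5%, lay below 0 against 52.3% of all features. Next to MRPL13 and RSM19, RSM10 was lowest (-0.35 ± 0.13, limma adjusted p = 0.123), and RSM28 (0.42 ± 0.15, adjusted p = 0.0975), RSM24, a mitochondria-specific small-subunit protein (0.35 ± 0.14, adjusted p = 0.153), and MRPL25 (0.33 ± 0.14, adjusted p = 0.149) were highest. Both strains read lower than at 0 min in 21 of 65 members, 32.3% against 36.2% of all features, and higher in 22, 33.8% against 34.1%.

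**Figure D3:**
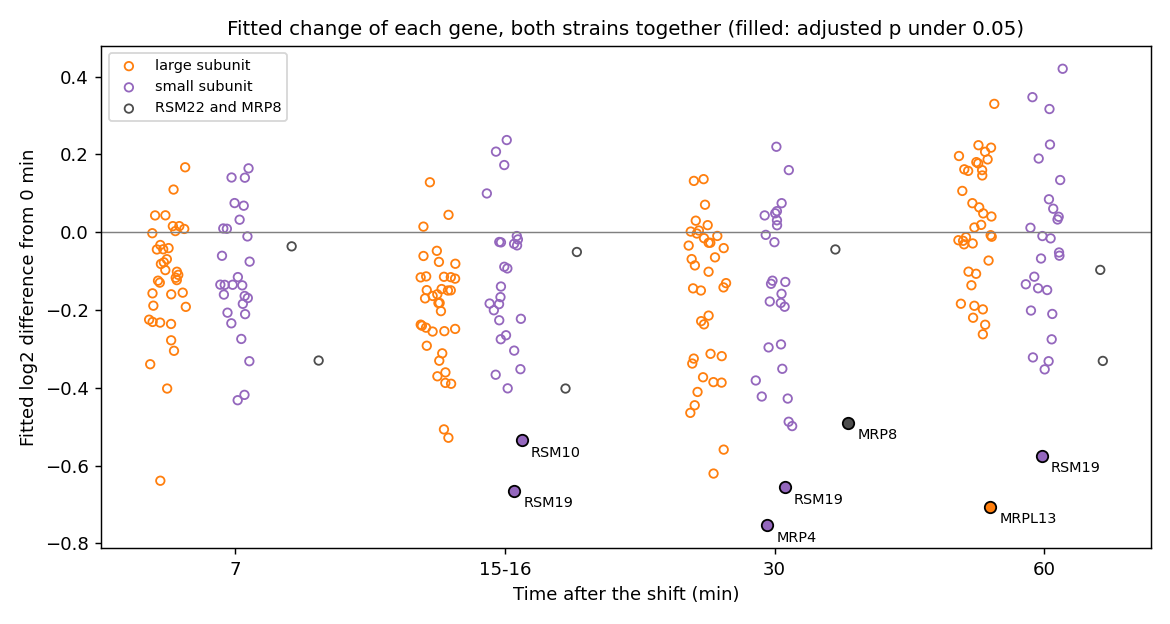
Fitted log2 difference from 0 min over both strains (vertical axis) of each gene at 7, 15-16, 30 and 60 min (horizontal axis, points spread sideways for sight), with filled and named points for genes at an adjusted p under 0.05. The named points all lie below 0, and the remaining points lie mostly below 0 at 15-16 min and on both sides of 0 at 60 min.

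RSM19 passed at 3 of the 4 times and was the 1 member to pass the test of any change over time (limma F test, adjusted p = 0.027), 1.52% of the members against 8.98% of all features. Its product is the mitochondrial counterpart of the bacterial small-subunit protein of the same number, named uS19m. In the wild type it read 0.32 at 0 min and then -0.05, -0.33, -0.37 and -0.18 at 7, 16, 30 and 60 min. On the arrays labelled ppt1 it read 0.065 at 0 min and then -0.43, -0.62, -0.56 and -0.58 at 7, 15, 30 and 60 min. All 8 later arrays were below both 0 min arrays. The fitted difference was -0.67 ± 0.12 at 15-16 min (limma adjusted p = 0.0106), -0.66 ± 0.12 at 30 min (adjusted p = 0.0079) and -0.57 ± 0.12 at 60 min (adjusted p = 0.0147). Without the wild type 0 min array the adjusted p was 0.0658 at 15-16 min and 0.0702 at 60 min, without the 0 min array labelled ppt1 it was 0.0906, 0.0711 and 0.108 at the 3 times, without the wild type 16 min array 0.066 at 15-16 min, without the wild type 30 min array 0.0688 at 30 min, and without the wild type or the labelled ppt1 60 min array 0.0527 or 0.125 at 60 min. The test over all times was lost without the wild type array of 0, 7 or 30 min, without the array labelled ppt1 of 0, 7 or 60 min, after quantile normalization and without the strain term.

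MRPS12, the gene of the small-subunit protein that faces the decoding centre, lies next to RSM19 on chromosome XIV, the only adjacent pair among the members. MRPS12 read 0.32, 0.13, 0.29, 0.14 and 0.15 in the wild type and 0.22, -0.01, -0.02, 0.02 and -0.03 on the arrays labelled ppt1. It followed RSM19 with Pearson's r = 0.82 over the same 10 arrays, given as a description, but its fitted differences stayed between -0.21 and -0.14 and passed at no time. DBP6, a helicase gene of cytosolic ribosome assembly on the other side of RSM19, had fitted differences between 0.01 and 0.30.

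RSM10, whose product is named uS10m, read 0.35, 0.09, -0.29, 0.05 and 0.05 in the wild type and 0.30, -0.10, -0.13, -0.16 and -0.10 on the arrays labelled ppt1. All 8 later arrays were below both 0 min arrays, and the difference was -0.54 ± 0.13 at 15-16 min (limma adjusted p = 0.0417). This call was lost in 9 of the 10 fits that left out an array, kept only without the array labelled ppt1 at 15 min (adjusted p from 0.0557 to 0.242 where lost). It was also lost without centring and with both other scalings.

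MRPL13, a mitochondria-specific large-subunit protein named mL50, fell by 0.71 ± 0.18 at 60 min (limma adjusted p = 0.0321). The wild type read 0.59, 0.05, -0.02, 0.07 and 0.13, and the arrays labelled ppt1 0.26, -0.00, -0.18, -0.11 and -0.69. The later wild type arrays lay between -0.02 and 0.13, and the 60 min array labelled ppt1 was far below all others. Without that 60 min array the difference was -0.39 (adjusted p = 0.253), without the wild type 60 min array it was -1.03, and without either 0 min array it did not pass (adjusted p = 0.142 and 0.146). Median and MAD scaling (adjusted p = 0.061) and quantile normalization (adjusted p = 0.0712) also ended the call.

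MRP4, the small-subunit protein named uS2m, had no value on the wild type 30 min array, so its call at 30 min rests on 1 array. It read 0.57, 0.59 and 0.39 in the wild type to 16 min and 0.27 at 60 min, and 0.44, 0.40, 0.29, -0.32 and 0.10 on the arrays labelled ppt1. The lowest array in either strain was the 30 min array labelled ppt1, and the 60 min array was the lowest measured in the wild type. The fitted difference was -0.75 ± 0.16 at 30 min (limma adjusted p = 0.0163), and without either 0 min array the adjusted p was 0.0576 and 0.107. MRP4 was also the 1 member whose level at 30 and 60 min differed from that at 7 and 15-16 min (-0.45 ± 0.09, adjusted p = 0.0385), 1.52% of the members against 3.39% of all features, of which 2.15% were lower and 1.24% higher, and this call was lost in each of the 9 fits without an array that could be made for it.

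MRP8, not a subunit, fell by 0.49 at 30 min (SE 0.13, limma adjusted p = 0.0392). It read 1.13, 0.86, 0.82, 0.67 and 0.72 in the wild type and 1.02, 0.63, 0.53, 0.50 and 0.77 on the arrays labelled ppt1. Every later array was below both 0 min arrays, and every array was above the reference. The call was lost in 6 of the 10 fits without an array (adjusted p from 0.063 to 0.195) and under each other scaling, with a difference of -0.10 after quantile normalization (adjusted p = 0.7).

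**Figure D4:**
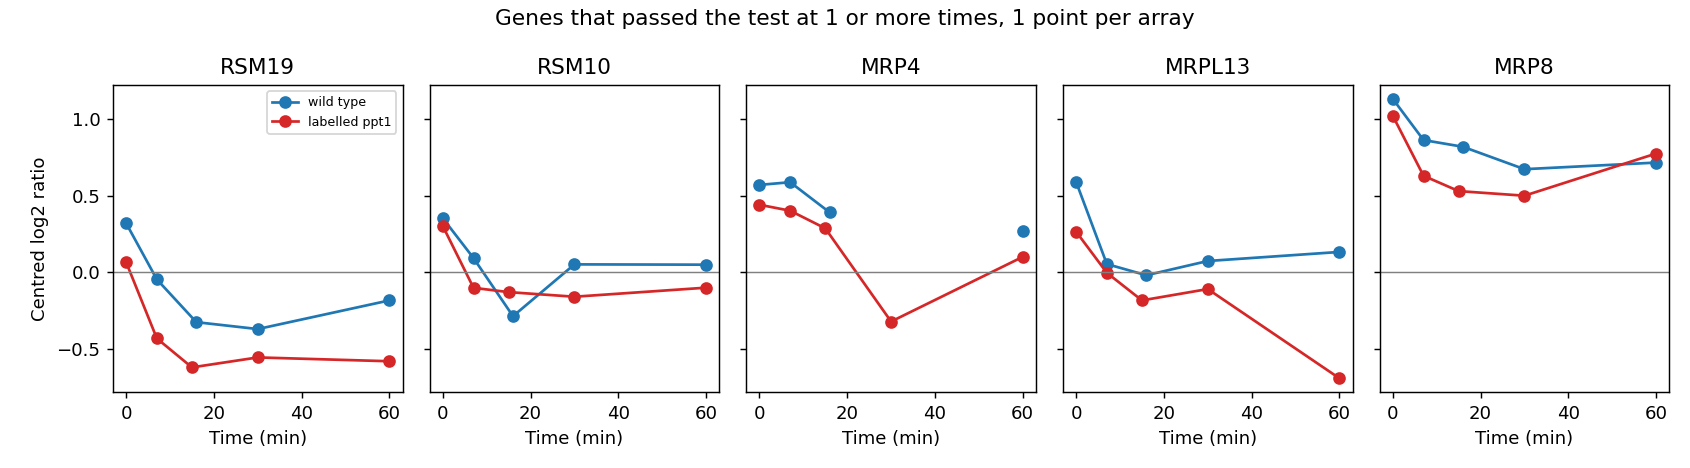
Centred log2 ratio (vertical axis) against time after the shift in min for the 5 genes that passed the test at 1 or more times, with 1 point per array, blue for wild type and red for arrays labelled ppt1. RSM19 lies below its 0 min value at all later times in both strains, MRP4 lacks the wild type 30 min point, and the low 60 min value of MRPL13 (-0.69) is on 1 array labelled ppt1.

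The later part of the course was read as the mean of 30 and 60 min against the mean of 7 and 15-16 min. Besides MRP4, 0 members passed. At an unadjusted p under 0.05 6 members were higher and 1 was lower, 10.6% together, against 8.84% and 11% of all features, 19.8% together. MRPL16 (0.32 ± 0.10, limma adjusted p = 0.12), MRPL51, a mitochondria-specific large-subunit protein (0.27 ± 0.11, adjusted p = 0.219), and MRPL20, a mitochondria-specific large-subunit protein (0.26 ± 0.09, adjusted p = 0.137), had the highest values. The median over members was 0.06, against -0.01 over all features, and 20 members lay below 0, 30.3% against 52.2%. After MRP4 the lowest values were those of RSM18, a small-subunit protein with a bacterial homolog (-0.22 ± 0.10, adjusted p = 0.282), and MRP1 (-0.16 ± 0.20, adjusted p = 0.705).

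The lowest of the 5 fitted levels fell at 15-16 min for 27 members and at 30 min for 21, or 40.9% and 31.8%, against 14.7% and 21.8% of all features. The highest was at 0 min for 30 members and at 60 min for 27, 45.5% and 40.9%, against 29.3% and 22.2% of all features. Members share arrays and are not independent replicates, so these shares carry no p.

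Differences between classes of subunits were not tested, and the medians are given as a description. At 15-16 min the median difference was -0.17 for the large subunit and -0.17 for the small subunit, and at 60 min 0.01 and -0.05. By ancestry, the 17 small-subunit proteins with a bacterial homolog had a median of -0.20 at 15-16 min, and the 10 mitochondria-specific ones -0.03. In limma's fit 2 of the 17, RSM19 and RSM10, and 0 of the 10 passed at that time, against 7.18% of all features. At an unadjusted p under 0.05 4 of the 17 and 1 of the 10 were lower, against 13.9% of all features. In the large subunit the medians at 15-16 min were -0.15 for the 23 with a bacterial homolog and -0.21 for the 14 without. Among later calls, RSM19 and MRP4 of the 17 passed at 30 min, MRP4 on 1 array, against 11.4% of all features. At 60 min RSM19 of the 17 and the mitochondria-specific MRPL13 of the large subunit passed, against 12.3% of all features.

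Members resembled each other only loosely over the arrays. Among the 62 members with all 10 values, the median Pearson's r between 2 members was 0.25, against -0.00 between any 2 features with all values, 0.43 among 131 cytosolic ribosomal protein genes and 0.47 among 28 nuclear respiratory chain genes. These genes share their arrays and their centring, so the values are descriptions. Set against the mean of the other members, 30 of 62 had r above 0.5, led by MRP21 (0.85) and MRPL23 (0.83), a small-subunit and a large-subunit protein. Another 5 had r below 0, lowest for RSM26 (-0.44) and RSM28 (-0.18). The matching shares over all features are not given here.

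RSM28 and RSM26 show what such exceptions look like. RSM28 read -0.62, -0.31, -0.32, -0.50 and -0.15 in the wild type and -0.26, -0.29, -0.15, 0.06 and 0.11 on the arrays labelled ppt1, so its highest array in each strain was that of 60 min. RSM26 read -0.16, -0.19, -0.44, -0.04 and -0.22 in the wild type and -0.20, -0.15, -0.11, -0.00 and -0.41 on the arrays labelled ppt1, so that it was highest at 30 min in both. Neither passed a test at any time in limma's fit.

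Between the strains, matched by time over 5 pairs, 0 members passed in limma's fit, against 3.8% of all features (2.06% lower and 1.73% higher). At an unadjusted p under 0.05 10 were lower and 4 higher on the arrays labelled ppt1, or 15.2% and 6.06%, against 11.3% and 11.9% of all features. The median difference, labelled ppt1 minus wild type, was -0.06, against 0.01 over all features, and 38 members lay below 0, 57.6% against 48.7%. Of the 62 members with all 5 pairs, 12 were lower in every pair and 5 were higher in every pair, or 19.4% and 8.06%, against 11.2% and 12% of all features. Since a strain's arrays may share a culture, the pairs need not be independent.

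MRP51, a small-subunit protein known for its part in the translation of the mRNAs of cytochrome oxidase subunits, had the most negative value (-0.35 ± 0.09, limma adjusted p = 0.0617, lower in 5 of 5 pairs). It read 0.43, 0.42, 0.29, 0.22 and 0.44 in the wild type and 0.23, -0.03, -0.33, 0.085 and 0.085 on the arrays labelled ppt1, and the 2 sets overlapped only through the 0 min array labelled ppt1. MRPL13 (-0.31 ± 0.11, adjusted p = 0.139) and RSM19 (-0.30 ± 0.08, adjusted p = 0.0585) followed, each lower in 5 of 5 pairs. Fitted on the 4901 features with a value on all arrays alone, MRP51 and RSM19 passed. The share of those features that passed in that fit is not given here, so nothing is read from this change. The highest value was that of MRPS5 (0.41 ± 0.13, limma adjusted p = 0.109, higher in 4 of 4 measured pairs). Next was MRP1 (0.34 ± 0.16, adjusted p = 0.239, lower in 1 of 4 measured pairs). RSM28 (0.27 ± 0.09, adjusted p = 0.123, higher in 5 of 5 pairs) followed.

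**Figure D5:**
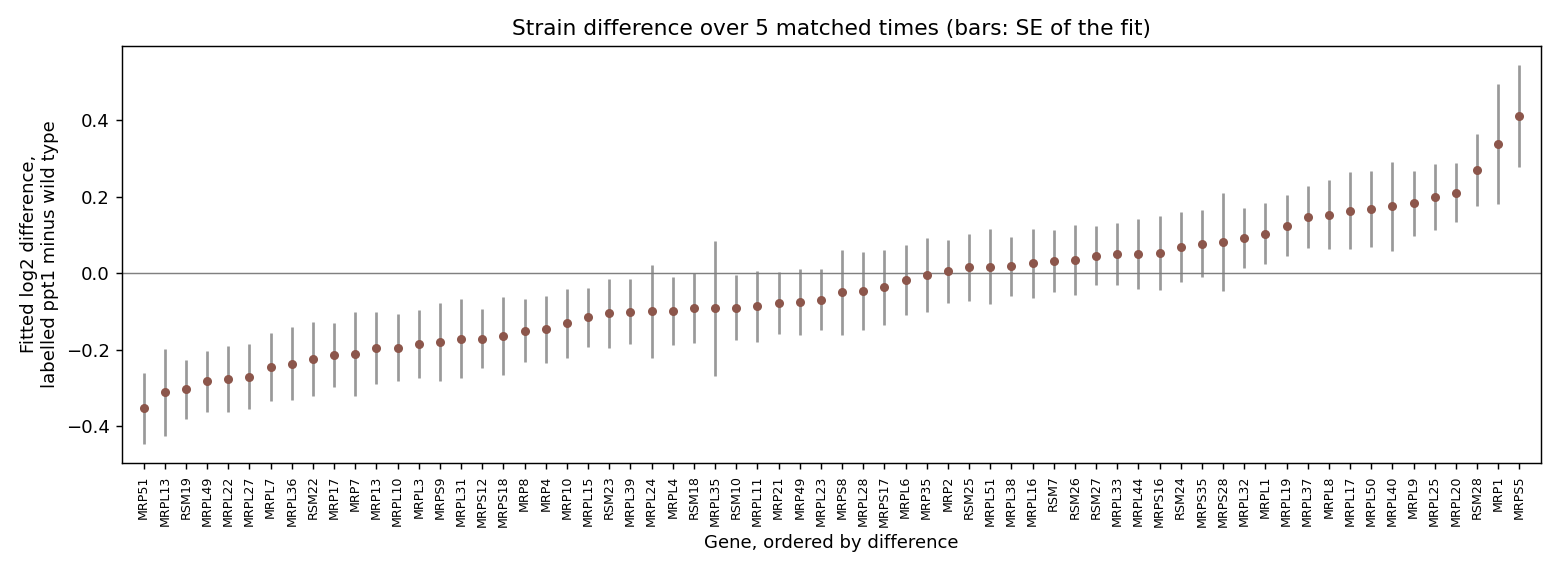
Fitted log2 difference, labelled ppt1 minus wild type over 5 matched times (points), with the SE of the fit (bars), for each of the 66 genes in order of size. The values run from -0.35 for MRP51 to 0.41 for MRPS5, and 0 of them passed at an adjusted p under 0.05.

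Whether the strains responded differently was asked with an interaction, the strain difference after the shift minus that at 0 min. Of the 65 members that could be fitted, 0 passed in limma's fit and 0 had an unadjusted p under 0.05, against 0% and 4.71% of all features (3% higher and 1.71% lower unadjusted). MRP1, without a wild type 0 min value, could not be fitted. The median was -0.10, against -0.01 over all features, and 51 members lay below 0, 78.5% against 51.1% of all features. The values ran from -0.33 ± 0.23 for RSM22 to 0.33 ± 0.27 for MRP7, a large-subunit protein with a bacterial homolog. MRPL27, a mitochondria-specific large-subunit protein (-0.30 ± 0.20), and MRPS9 (-0.30 ± 0.25) were next at the low end, and MRPL40 (0.31 ± 0.29) and MRPS18 (0.26 ± 0.26) at the high end. With standard errors of this size the interaction of a single member was not measured closely.

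Other lists of the mitochondrial translation apparatus are small, and nothing is read from their counts of calls. Beside them stand 3.02%, 7.18%, 11.4% and 12.3% of all features called at the 4 times and 3.8% between the strains. At an unadjusted p under 0.05 the shares of all features at the 4 times were 16.2%, 22.3%, 27.9% and 27.7%. The 13 subunits with other symbols on the arrays, among them MNP1, NAM9 and PET123, had medians of -0.13, -0.20, -0.09 and -0.01 at 7, 15-16, 30 and 60 min. In limma's fit 0 of them passed at each time. At an unadjusted p under 0.05 1, 1 and 3 were lower at 7, 15-16 and 30 min, and 2 were higher at 60 min. Of 10 mitochondrial translation factors TUF1, the elongation factor Tu, fell at 15-16 min (-0.54 ± 0.13, limma adjusted p = 0.0315), and MEF2, a factor of ribosome recycling, was lower on the arrays labelled ppt1 (-0.49 ± 0.09, adjusted p = 0.0274). Of 12 mitochondrial tRNA synthetases 0 passed at each time in limma's fit, with 1 higher at an unadjusted p under 0.05 at 60 min and 0 at the other times.

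Of 10 assembly genes MRH4, an RNA helicase of large-subunit assembly, fell at 30 min (-0.52 ± 0.15, limma adjusted p = 0.0481), and MTG1, an assembly GTPase, was lower on the arrays labelled ppt1 (-0.40 ± 0.09, adjusted p = 0.0493). Of 16 translational activators SOV1, needed for translation of Var1, rose at 30 min (0.67 ± 0.15, adjusted p = 0.0163). Among 4 genes of mitochondrial transcription and mRNA control 0 passed at each time, also at an unadjusted p under 0.05. One of them was PUF3, at -0.02 ± 0.18 at 7 min and -0.03 ± 0.18 at 60 min.

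The cytosolic ribosomal protein genes and the nuclear genes of the respiratory chain stood on either side. At 15-16 min the median of 135 cytosolic ribosomal protein genes was 0.07 and at 60 min 0.20, while the members were at -0.17 and -0.01. The value at 15-16 min averages strains that differed, with a median change from the own 0 min array of 0.22 in the wild type, where 17% of these genes were lower, and -0.04 on the arrays labelled ppt1, where 61.5% were. Of the cytosolic genes 0, 1, 3 and 3 rose at 7, 15-16, 30 and 60 min and 0 fell. The shares of all features that rose were 0.447%, 1.56%, 3.56% and 3.97%. At an unadjusted p under 0.05 1, 5, 10 and 25 cytosolic genes were higher and 4, 1, 0 and 1 lower. The matching shares of all features were 5.89%, 8.42%, 11.2% and 11.3% higher and 10.3%, 13.9%, 16.7% and 16.4% lower. The lowest fitted level of the cytosolic genes was at 7 min in 56.3%, against 15.2% of all features. Of 31 nuclear respiratory chain genes 1, 3, 3 and 2 fell and 0 rose, with medians of -0.31, -0.38, -0.27 and -0.26. Over all features 2.58%, 5.62%, 7.8% and 8.38% fell at these times, so these adjusted calls are near the background. Lower at an unadjusted p under 0.05 were 14, 21, 7 and 10 of the 31, against 10.3%, 13.9%, 16.7% and 16.4% of all features. The fitted difference lay below 0 in 29, 30, 25 and 27 of them, against 51.3%, 50.6%, 52.9% and 52.3% of all features. SDH4, a subunit of succinate dehydrogenase, fell at all 4 times, most at 15-16 min (-0.75 ± 0.13, limma adjusted p = 0.00818). COX9, a subunit of cytochrome oxidase, fell at 30 min (-1.40 ± 0.24, adjusted p = 0.00613), a value that rests on the 1 array labelled ppt1 because the wild type has none at 30 min. No difference between these lists and the members was tested.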

How the data were processed

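The table deposited by the authors held 1 log ratio of the 2 channels per feature and array, taken as log2, with channel 2 named the reference per the labels. The log base, the platform, the dyes, the background correction and the normalization were not given in the sources used here. Deposited medians lay between -0.075 and 0.012, and 1.81% of values were missing. A natural log would enlarge each value by 1 common factor and change no adjusted p.

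The median of each array was subtracted. With limma 3.58.1 under R 4.3.3, a linear model fitted time point and strain as additive terms to all 10 arrays (4 residual and 5.8 prior degrees of freedom), and a second fit added the interaction (3 residual). The strains serve as the 2 replicates of a time. P-values were Benjamini-Hochberg adjusted over all features. Scripts were tested on simulated data. The number of arrays limits precision.

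Systematic names were matched through a RefSeq table of assembly R64, which held 5358 of the 5822, and names of ribosomal proteins came from its synonyms. Coordinates are left out because the arrays' build is unknown. Members and lists were chosen with earlier results of these data known, and the list of subunits with other symbols was taken from those synonyms after the table was read. Named were all members that passed, or the 3 highest and 3 lowest per comparison, and those with extreme means or SDs, with no sequences shown. Adjacent genes, RSM26, RSM28, MRPS12, MRP21, MRPL23 and examples at the edges were chosen after their values were seen.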

Additional observations from a re-analysis of the deposited data

How the results depend on the processing

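The number of members that passed was small in every setting, and single calls moved with the scaling. The shares of all features that passed in each setting are not given here, so changes in these counts are not read as particular to the members. Scaling alternatives were no centring, median and MAD scaling and quantile normalization. At 15-16 min 1 member passed under each of the 3, against 2. At 60 min 1 passed with median and MAD scaling and with quantile normalization. Over any time 0 passed with quantile normalization, 0 without the strain term, and 2 with a trended, robust prior. On features with all values 2 passed between the strains and 0 for late against early times, since MRP4 has 9 values and was not among them. With each array left out in turn, the count ranged from 0 to 2 at 15-16 min, 0 to 4 at 30 min, 0 to 2 at 60 min and 0 to 2 over any time. It was 0 in every such fit at 7 min, for late against early times, between the strains and for the interaction. Here the lone array of a time is assumed to vary like the others, and the interaction was not run without a 0 min array. The median over members ranged from -0.18 to -0.04 at 7 min, -0.23 to -0.13 at 15-16 min, -0.20 to -0.09 at 30 min and -0.07 to 0.05 at 60 min, in each case lowest without the wild type 0 min array and highest without that labelled ppt1. It ranged from 0.03 to 0.07 for late against early times, -0.07 to -0.04 between the strains and -0.14 to -0.08 for the interaction. The labels give no replicate numbers, so no fit with a replicate block was made, and the strain comparison pairs arrays by time.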
